A study of Mus musculus with 2 samples.

Results

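CD8 T cells were read out of the non-parenchymal liver cells of fibrotic mice by a gate on raw UMIs (unique molecular identifiers, tags that mark single RNA molecules). Barcodes were kept from 200 detected genes upwards and up to a mitochondrial share of 20% of UMIs, and the cells were then chosen by their own counts: at least 2 UMIs of Cd3d, Cd3e and Cd3g together and at least 2 UMIs of Cd8a and Cd8b1 together. A cell was also required to have no Cd4 UMI, fewer than 2 Trdc UMIs, at most 1 UMI of the B cell genes Cd79a, Cd79b and Ms4a1, and at most 5 UMIs of the macrophage genes C1qa, C1qb and C1qc. The gate held 343 of 24093 cells, 172 from the Mfap2+/+ (wild-type) library and 171 from the Mfap2-/- (knockout) library. They were divided further into 193 cells with a UMI of Lef1 and 150 cells without one. All values that chose the cells, and every difference between the Lef1-detected and Lef1-absent cells, are given as description.

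Both groups of mice received intraperitoneal carbon tetrachloride (CCl4), a hepatotoxin that scars the liver, over 8 weeks, so every cell described came from an injured liver, and untreated mice were not analysed here. Mfap2 is the gene of a microfibril-associated matrix glycoprotein. The labels name 1 library per genotype and do not give the number, age, sex or strain of the mice behind it. Genotype, animal and library preparation therefore cannot be told apart, no test between the libraries is possible, and all intervals are 95% intervals that cover counting error only.

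CD8 T cells are the killer lymphocytes of adaptive immunity: they read peptides on MHC class I through the T cell receptor and the CD8 coreceptor and destroy target cells with granzymes, perforin and cytokines. Naive and central memory cells circulate through lymphoid tissue under the transcription factors Lef1 and Tcf7 and carry homing receptors such as Ccr7. Effector and resident cells in the liver carry Cxcr6 and granzymes, and cells under lasting stimulation take on checkpoint receptors such as Pdcd1 and the factor Tox.

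The labels were checked first. Values of the gate genes follow as description, since the gate chose the cells by them. Over all cells kept, 257 Mfap2 UMIs were counted in the wild-type library and 4 in the knockout library. Among the gated cells Cd8a stood at 329 CPM (UMIs of a gene scaled to 1e6 UMIs of the summed cells) in wild-type and 212 in knockout cells, and Cd8b1 at 373 and 400 CPM. In natural killer (NK) cells with ILC1, in B cells and in macrophages, neither gene was above 2.67 CPM in either library. Trac, the constant region of the T cell receptor alpha chain, stood at 313 and 262 CPM. Both Cd8 genes were detected in 126 wild-type and 113 knockout cells, Cd8a alone in 22 and 13, and Cd8b1 alone in 24 and 45. The gate's edge was populated: 51 wild-type and 34 knockout cells had exactly 2 Cd8 UMIs, and 54 and 51 cells with the required Cd3 sum had exactly 1 and were left out.

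Depth differed between the libraries, with a median of 5862 UMIs and 2189 genes per CD8 T cell in wild-type and 7126 UMIs and 2522 genes in knockout cells. The libraries shared 40 cell barcodes, none of them a CD8 T cell in both. RNA of other cells was present throughout: Apoe, a gene of macrophages and hepatocytes, was detected in all 172 wild-type and all 171 knockout CD8 T cells, and S100a8, a neutrophil gene, in 82.6% and 77.8% of them. Summed over the 8 neutrophil markers, CD8 T cells stood at 912 CPM in wild-type and 1449 in knockout cells, and B cells at 2363 and 1706. The 10 macrophage markers stood at 790 and 595 CPM, the 6 erythroid markers at 671 and 174, the 8 hepatocyte markers at 133 and 278, and the 8 B cell markers at 117 and 123. Of the 8 NK and ILC1 markers Klra4 had no UMI in either library, and their sum was 221 and 201 CPM. Of 6 gamma-delta T cell markers in the files Sox13 was at 0 in both, and their sum was 29.7 and 80.2 CPM, with 84 of the 104 knockout UMIs in Lef1-absent cells. With the 25% of cells richest in markers of other types left out of each library, a choice made after seeing the data, log2 ratios of knockout over wild type were -1.80 for Gzmb, 1.25 for Gzma, -1.57 for Itga1, -1.41 for Il12rb2, 1.12 for Pdcd1 and 0.96 for Hspa1a, close to the values over all gated cells given below.

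The C1q limit acted unequally. It left out 63 of 235 wild-type cells (26.8%, interval 21.3 to 33.0) and 111 of 282 knockout cells (39.4%, 33.6 to 45.3) that met every other condition. Those cells were deep, with medians of 11872 and 12410 UMIs, and carried medians of 7 and 8 C1q UMIs. In B cells the same limit left out 16.7% and 23.8%. Leaving the limit out was an alternative added after seeing the data, and its value is given for those ratios of the libraries followed under it whose 2-fold call it ended or whose fold it moved by over 1.5 times.

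CD8 T cells made up 1.51% (1.30 to 1.75) of the wild-type library and 1.34% (1.15 to 1.56) of the knockout library, with intervals that overlapped. Without the C1q limit the shares were 2.07% (1.81 to 2.35) and 2.22% (1.97 to 2.49), so their order depended on it. Among cells with the required Cd3 sum, CD8 T cells were 19.2% (16.7 to 21.9) of the wild-type and 14.8% (12.8 to 17) of the knockout cells. Those Cd3-positive cells, 896 and 1154, had not been put through the other limits of the gate. Without the C1q limit 235 of the 896 and 282 of the 1154 were CD8 T cells, a smaller gap. Under matching gates 46 wild-type and 109 knockout CD4 T cells were found, so CD8 T cells were 78.9% (72.9 to 84.1) of the wild-type and 61.1% (55.1 to 66.8) of the knockout CD8 and CD4 cells together. The CD4 gate needed a Cd4 UMI and no Cd8 UMI. A further 339 wild-type and 320 knockout cells with the required Cd3 sum, within the other limits, had neither and were left out. The knockout library was the deeper one, and the part of depth in these shares was not tested. Differences in how cells were released or captured cannot be told apart from differences in the liver.

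Between the libraries 5620 genes had at least 50 UMIs over the CD8 T cells. A log2 ratio sets the knockout CPM over the wild-type CPM after adding 1 count to both sums, and its median over these genes was 0.10, against which each ratio is read. Of these ratios 58.1% lay above 0, and 49.5% did with the libraries scaled by the median of their gene ratios in place of total UMIs. At least 2-fold higher in the knockout were 168 genes (2.99%), and at least 2-fold lower were 65 (1.16%). With that scaling the median over all genes was -0.0037, and 124 genes were higher and 97 lower, so the higher share of the called genes moved from 72.1% to 56.1%. Against that background the 17 role lists fell into those above it, led by checkpoint genes (median 0.71), and those below it, led by cell cycle genes (median -0.97).

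**Figure D1:**
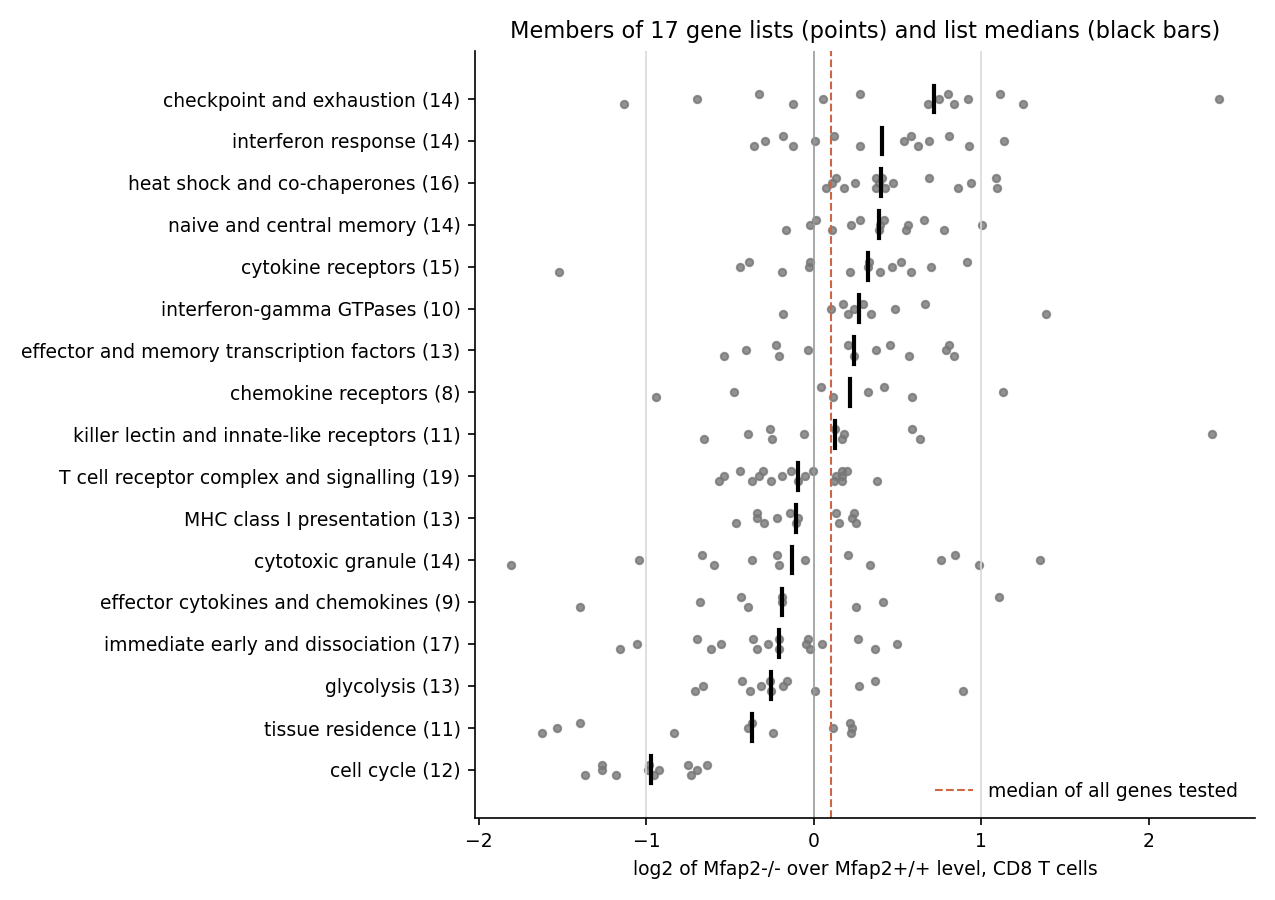
Each point is a gene of a role list with at least 50 UMIs, placed by its log2 ratio of knockout over wild-type level in CD8 T cells; black bars are list medians, the dashed line is the median of all genes tested (0.10), and the number of genes plotted stands behind each list name. The checkpoint list has the highest median (0.71) and the cell cycle list the lowest (-0.97), while the 16 heat shock genes all lie above 0, 15 of them with the median-of-ratios scaling.

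Granzymes, the serine proteases of the killing granule, went in opposite directions. Gzmb, which cleaves caspases in the target cell, had 983 UMIs in wild-type and 336 in knockout cells, 911 against 259 CPM, a log2 ratio of -1.81 (-2.00 to -1.63). It was detected in 107 of the 172 wild-type cells and in 57 of the 171 knockout cells, and with each cell thinned to 1000 UMIs in 42.4% (35.0 to 50.2) and 16.4% (11.2 to 22.8). In B cells, which should lack it, the thinned shares were 1.41% and 0.516%. Gzma, a granzyme of different cleavage preference, had 408 and 1253 UMIs, 378 against 966 CPM, a log2 ratio of 1.35 (1.19 to 1.52). Its cells were as many in both libraries, 46 and 43, so the higher sum came from more Gzma UMIs per positive cell; with the 5 cells richest in Gzma dropped from each sum the ratio was 1.65, and without the C1q limit 0.95. The genes lie on different chromosomes: Gzmb (ENSMUSG00000015437) on the reverse strand of chromosome 14 from 56258838 to 56262260, and Gzma (ENSMUSG00000023132) on the reverse strand of chromosome 13 from 113093825 to 113100981, both on GRCm38.

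Because these neighbours in function differed in direction, the 250 bases before the RefSeq start of each are shown (GRCm38.p6, 5′ to 3′ on the gene's strand). Capitals mark matches on either strand to the AP-1 motif TGANTCA and the RUNX motif TGTGGT, which appears as ACCACA when it lies on the opposite strand. Gzmb is read at chr14:56262335-56262584 and Gzma at chr13:113100982-113101231.
Gzmb: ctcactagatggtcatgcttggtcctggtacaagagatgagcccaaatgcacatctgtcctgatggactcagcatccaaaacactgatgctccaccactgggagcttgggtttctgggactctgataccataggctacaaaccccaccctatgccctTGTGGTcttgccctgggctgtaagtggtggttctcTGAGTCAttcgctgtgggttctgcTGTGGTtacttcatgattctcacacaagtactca
Gzma: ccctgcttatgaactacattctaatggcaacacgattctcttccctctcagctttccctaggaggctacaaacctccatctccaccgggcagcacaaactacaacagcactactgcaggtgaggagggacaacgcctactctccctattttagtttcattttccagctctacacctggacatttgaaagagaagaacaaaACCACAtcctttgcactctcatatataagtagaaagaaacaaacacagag

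The Gzmb window held 1 match to TGANTCA and 2 to TGTGGT, and the Gzma window held 0 and 1. Of 27025 genes with a promoter in the RefSeq table, 7.82% held TGANTCA and 15.9% held TGTGGT in a window of this length. Of the 13 cytotoxic granule genes matched there, 1 held TGANTCA (Gzmb) and 7 held TGTGGT (Gzma, Gzmb, Gzmm, Prf1, Nkg7, Cst7 and Srgn). A match describes the letters only.

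The rest of the cytotoxic list was split. Of 14 genes tested 1 was at least 2-fold higher (Gzma) and 2 at least 2-fold lower (Gzmb and Serpinb6b), beside 2.99% and 1.16% of all genes. Ratios above 0 were 6 and below 0 were 8, beside 3266 and 2354 of 5620 genes in all. The median was -0.13, or 0.061 with the 25% of cells richest in markers of other types left out. Prf1, the pore-forming perforin, was detected in 19 wild-type and 41 knockout cells, 18.5 against 37.8 CPM (log2 0.99, 0.25 to 1.86). Ctsc, the protease that activates granzymes, stood at 153 and 259 CPM (0.76, 0.49 to 1.04), but at 0.09 without the C1q limit. Serpinb6b, a protease inhibitor, stood at 196 and 94.9 CPM (-1.04, -1.38 to -0.72, and -0.66 without the C1q limit), and Serpinb9, which protects the killer cell from granzyme B, at 167 and 110 CPM (-0.59, -0.92 to -0.27). Nkg7, a granule membrane protein, stood at 878 and 754 CPM (-0.22, -0.35 to -0.09).

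Among secreted effectors Xcl1, the chemokine that draws cross-presenting dendritic cells, differed most. It had 323 and 147 UMIs, 299 against 113 CPM, a log2 ratio of -1.40 (-1.69 to -1.12), and -0.95 without the C1q limit. Ifng, the gene of interferon-gamma, stood at 498 and 311 CPM (-0.68, -0.87 to -0.49) and was detected in 115 and 95 cells. Ccl5, a chemokine stored in granules, stood at 7727 and 6768 CPM (-0.19, -0.23 to -0.15). Ccl3, an inflammatory chemokine, stood at 287 and 383 CPM (0.41, 0.21 to 0.63), with 50.3% of the knockout UMIs in 5 cells and a ratio of -0.10 once the 5 richest cells were dropped from each sum. Of 9 effector cytokine genes tested, 1 was at least 2-fold higher (Csf1) and 1 lower (Xcl1), beside 2.99% and 1.16% of all genes, and the median was -0.19. Csf1, a macrophage growth factor, had 18 and 48 UMIs, of which 72.2% and 66.7% lay in 5 cells.

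Of 11 genes of tissue residence tested, 7 were lower and 4 higher in the knockout, beside 2354 and 3266 of 5620 genes in all. Itga1, the alpha subunit of a collagen-binding integrin that holds resident T cells in tissue, had 212 and 82 UMIs, 196 against 63.3 CPM, a log2 ratio of -1.62 (-2.02 to -1.26). It was detected in 81 wild-type and 40 knockout cells, and after thinning in 14.0% (9.15 to 20.05) and 4.68% (2.04 to 9.01), against 1.30% and 1.62% of B cells. Itga1 lies on the reverse strand of chromosome 13 from 114953096 to 115101964 and contains Pelo on its own strand, so reads of the pair could be confused. P2rx7, a receptor for extracellular ATP, stood at 48.2 and 16.2 CPM (-1.53, -2.38 to -0.82, and -0.77 without the C1q limit), and Rgs2, a regulator of G-protein signalling, at 444 and 248 CPM (-0.84, -1.05 to -0.63). With each barcode thinned to 2000 UMIs before gating Rgs2 stood at -0.046. Cxcr6, the receptor that keeps T cells in liver sinusoids, was detected in 82 and 66 cells at 137 and 149 CPM (0.12, -0.20 to 0.44). Of the 11 genes none was 2-fold higher and 3 were 2-fold lower (Itga1, P2rx7 and Xcl1, which also stands in the cytokine list), beside 2.99% and 1.16% of all genes. The list median was -0.37. In Lef1-detected cells 8 of 10 genes lay below 0 (median -0.79), beside 1780 of 4174 genes in all. In Lef1-absent cells 5 of 10 did (median -0.085), near the 1318 of 3011 genes in all.

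Cytokine receptors held 1 large difference. Il12rb2, the signalling chain of the interleukin-12 receptor, had 643 and 268 UMIs, 596 against 207 CPM, a log2 ratio of -1.52 (-1.74 to -1.32), and was detected in 105 and 65 cells. Tgfbr1, a receptor kinase for TGF-beta, stood at 41.7 and 79.4 CPM (0.91, 0.41 to 1.47), and Il21r at 521 and 747 CPM (0.52, 0.37 to 0.67). With barcodes thinned before gating, Il21r stood at -0.083 and Tgfbr1 at 0.16, while Tgfbr1 stood at 1.69 with cells thinned to 1000 UMIs before summing. Of 15 receptors tested Il12rb2 alone was 2-fold lower and none 2-fold higher, beside 1.16% and 2.99% of all genes, with a median of 0.32. Of 8 chemokine receptors, only Cxcr5 was 2-fold higher (1.13), beside the same 2.99%. Cxcr3, a receptor for interferon-induced chemokines, was lowest (-0.94, 39 and 24 UMIs).

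Checkpoint and exhaustion genes had the highest list median (0.71). Of 14 tested, 3 were at least 2-fold higher (Havcr2, Entpd1 and Cd200r4, the last at 1.11) and 1 at least 2-fold lower, beside 2.99% and 1.16% of all genes. Above 0 lay 10 ratios (9 with the median-of-ratios scaling), beside 58.1% of all genes. The list was also above the median of all genes in other classes of the same libraries, with medians of 0.63 over 9 genes in CD4 T cells, 0.55 over 8 in B cells and 0.78 over 15 in macrophages, and stood at 0.10 over 13 genes in NK cells with ILC1, where all genes had 0.15. Havcr2, which encodes the inhibitory receptor TIM-3, had 13 and 89 UMIs in 10 and 34 cells, 12.1 against 68.7 CPM, a log2 ratio of 2.42 (1.66 to 3.48). Entpd1, the ectoenzyme CD39, had 91 and 262 UMIs, 84.3 against 202 CPM (1.25, 0.91 to 1.62). Pdcd1, which encodes PD-1, had 109 and 249 UMIs in 46 and 56 cells, 101 against 192 CPM (0.92, 0.60 to 1.26). Tox, the transcription factor of lasting stimulation, had 488 and 1049 UMIs, 452 against 809 CPM (0.84, 0.68 to 1.0).

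Without the C1q limit these 4 ratios were 2.53 for Havcr2, 0.83 for Entpd1, 0.47 for Pdcd1 and 0.47 for Tox, and the list median was 0.47. Pdcd1 stood at 0.22 with barcodes thinned before gating and at 0.31 with thinned sums, and Tigit at 1.28 with the former. Tigit (0.68, 0.21 to 1.20) and Ctla4 (0.75, 0.50 to 1.0), both inhibitory receptors, were also higher. Below 0 were 4 of the 14 genes of the list. Cd160, a receptor of resident and innate-like T cells, was the only gene at least 2-fold lower, at 114 and 51.7 CPM (-1.13, -1.59 to -0.70). Nr4a1, an orphan nuclear receptor induced by T cell receptor signals, stood at 543 and 334 CPM (-0.70, -0.88 to -0.52). For Pdcd1 the share of cells with a UMI after thinning was alike, 12.2% (7.72 to 18.1) and 12.3% (7.77 to 18.2), so at that depth a difference in the number of positive cells was not detectable. The gene for PD-1 lies on the reverse strand of chromosome 1 from 94038305 to 94052553.

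**Figure D2:**
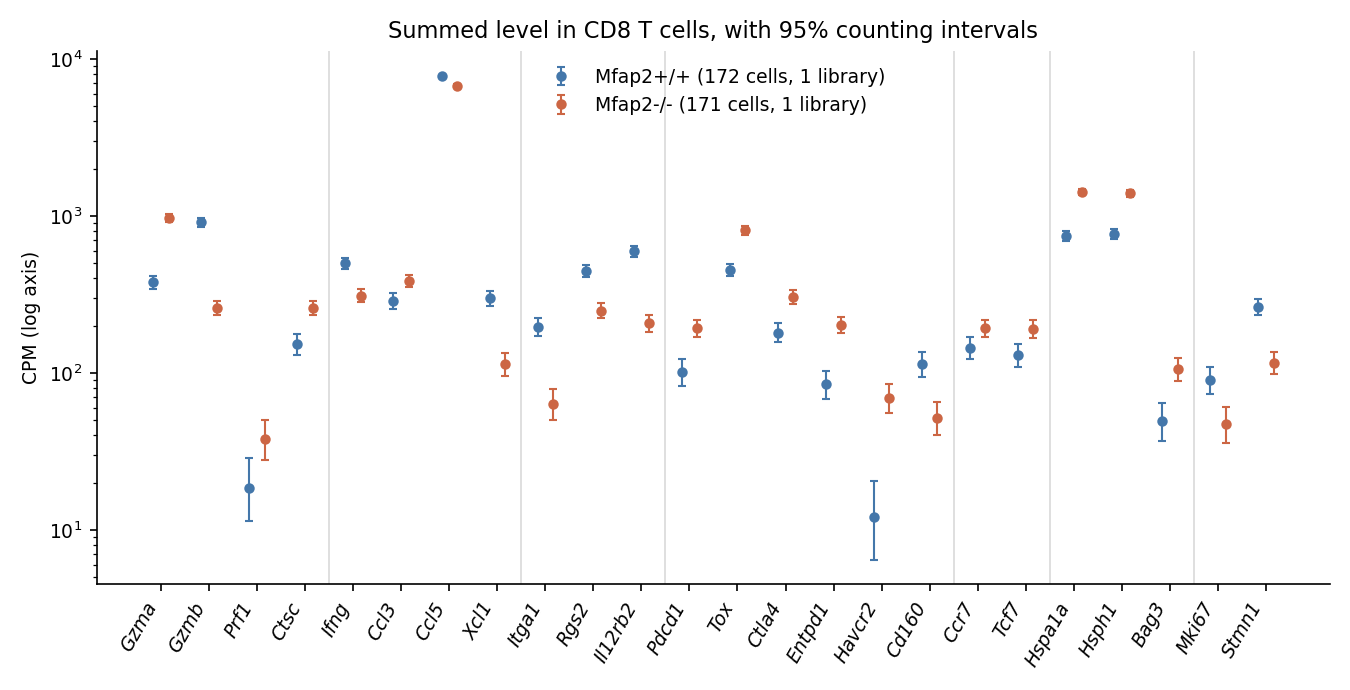
Summed level of selected genes in CD8 T cells, in CPM on a log axis, for the wild-type (blue) and the knockout library (red); bars are 95% Poisson counting intervals and do not cover variation between animals. Gzma is higher in the knockout (378 and 966 CPM) and Gzmb lower (911 and 259 CPM), Itga1, Il12rb2 and Xcl1 are lower in the knockout, and Pdcd1, Tox, Entpd1 and Havcr2 are higher.

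Naive and central memory genes lay slightly higher in the knockout (12 of 14 above 0, 11 with the median-of-ratios scaling, beside 58.1% of all genes; median 0.39). Ccr7, the chemokine receptor that guides cells into lymph nodes, stood at 144 and 193 CPM (0.42, 0.13 to 0.72), and Tcf7 at 130 and 191 CPM (0.55, 0.25 to 0.86). With all sums thinned to equal depth Tcf7 stood at -0.23. Satb1, a chromatin organiser of naive cells, was at 1490 and 1504 CPM (0.01, -0.08 to 0.11), and Klf2, which maintains homing receptors, at 1471 and 1311 CPM (-0.17, -0.27 to -0.07). Levels of Lef1 itself were 569 and 860 CPM in as many positive cells, 97 and 96.

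Transcription factors of effector and memory cells showed no gene past 2-fold among 13 tested, with a median of 0.24, or -0.19 with thinned sums. Runx3, which directs the cytotoxic programme, stood at 308 and 551 CPM (0.84, 0.65 to 1.03), and Eomes, a factor of memory cells, at 51.0 and 88.7 CPM (0.79, 0.32 to 1.29). Id2, a partner of effector differentiation, stood at 481 and 331 CPM (-0.54, -0.73 to -0.35). The T cell receptor list was flat, with none of 19 genes past 2-fold and a median of -0.10. Genes of MHC class I presentation were flat too, none of 13 past 2-fold, median -0.11. Of 11 killer lectin and innate-like genes only Zbtb16, the factor of innate-like T cells, was 2-fold higher (11 and 74 UMIs, log2 2.38), beside 2.99% of all genes. Of its knockout UMIs 85.1% came from 5 cells. Zbtb16 stood at 1.62 without the C1q limit and at 1.42 with the 5% of cells with most UMIs left out. With the 5 cells richest in it dropped from each sum it stood at 3.32, but no wild-type UMI was then left, so the added count set that value.

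All 16 heat shock and co-chaperone genes had a ratio above 0, and 15 of them with the median-of-ratios scaling (median 0.40 and 0.29), beside 58.1% and 49.5% of all genes. At least 2-fold higher were 2 of the 16, Bag3 and Hspb1, beside 2.99% of all genes. Hspa1a, the inducible Hsp70 chaperone, had 804 and 1850 UMIs, 745 against 1427 CPM (0.94, 0.82 to 1.06), though it has a near-identical copy, Hspa1b (0.42, 0.34 to 0.51), and reads of the copies may be split. Hsph1, a nucleotide exchange factor of Hsp70, stood at 765 and 1389 CPM (0.86, 0.74 to 0.98), Bag3, a co-chaperone, at 49.1 and 106 CPM (1.09, 0.64 to 1.59, and 0.65 with barcodes thinned before gating), and Hspb1 at 26.9 and 58.6 CPM (1.10, 0.49 to 1.80). The same list had medians of 0.56 in CD4 T cells, 0.58 in NK cells with ILC1, 0.63 in B cells and 0.91 in macrophages. The median of the 17 immediate early and dissociation genes tested went the other way (-0.21), and 2 were at least 2-fold lower, beside 1.16% of all genes. These were Dusp1 and Dusp2, phosphatases that switch off MAP kinases. Dusp1 stood at 2126 and 1024 CPM (-1.05, -1.15 to -0.96, and -0.77 without the C1q limit), Dusp2 at 498 and 223 CPM (-1.16, -1.37 to -0.95). Handling of the tissue before capture was not tested.

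Interferon genes had a median of 0.41, with 10 of 14 ratios above 0 (9 with the median-of-ratios scaling) beside 58.1% of all genes, and 1 of 14 at least 2-fold higher (Ifit2, 1.14) beside 2.99%. With barcodes thinned before gating the median was -0.0805, and with thinned sums Ifit2 stood at 0.0084. Ifit1, which binds viral RNA, had 125 and 243 UMIs in 36 and 61 cells (0.69, 0.38 to 1.02), and 75 of the 125 wild-type UMIs came from 5 cells. Of 10 interferon-gamma GTPases, 9 lay above 0 (8 with the median-of-ratios scaling), with a median of 0.27 beside 0.10 for all genes, and Iigp1, which attacks the vacuoles of pathogens, had 36 and 115 UMIs (1.38, 0.86 to 1.99). Iigp1 stood at 0.42 with thinned sums, 0.69 with barcodes thinned before gating and 0.77 with the cells richest in markers of other types left out.

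To show what heat shock and interferon promoters look like beside these values, the 250 bases before the RefSeq start of Hspa1a (chr17:34972157-34972406, reverse strand) and Ifit1 (chr19:34640639-34640888, forward strand) are printed, 5′ to 3′ on GRCm38.p6. Capitals mark the heat shock pair GAANNTTC and the interferon-stimulated motif, 2 copies of TTTC with 2 bases between them.
Hspa1a: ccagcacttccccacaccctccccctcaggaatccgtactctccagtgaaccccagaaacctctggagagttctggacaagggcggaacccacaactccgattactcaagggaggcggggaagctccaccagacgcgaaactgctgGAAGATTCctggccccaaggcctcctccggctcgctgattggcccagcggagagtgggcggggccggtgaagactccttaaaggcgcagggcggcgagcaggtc
Ifit1: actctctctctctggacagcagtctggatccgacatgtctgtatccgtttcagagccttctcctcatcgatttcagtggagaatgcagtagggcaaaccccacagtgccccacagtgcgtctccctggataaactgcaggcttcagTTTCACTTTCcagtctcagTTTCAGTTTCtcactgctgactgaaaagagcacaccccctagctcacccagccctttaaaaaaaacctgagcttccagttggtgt

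GAANNTTC was found on either strand before 6 of 13 heat shock genes in the table and 7.73% of all genes. The longer motif in which GAA follows GAANNTTC after 2 more bases, and which contains it, was found before 2 of 13 (Hspe1 and Hspd1) and 0.514% of all genes. The pair of TTTC was found on either strand before 7 of 12 interferon genes and 3.46% of all genes. These shares describe the reference sequence, not the libraries.

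Cell cycle genes were lower in the knockout: 4 of 12 at least 2-fold lower, beside 1.16% of all genes. All 12 lay below 0, beside 2354 of 5620 genes in all, with a median of -0.97. Stmn1, a microtubule regulator of dividing cells, had 284 and 150 UMIs (-1.18, -1.48 to -0.90). Mki67, the classic proliferation marker, had 97 and 61 UMIs (-0.93, -1.42 to -0.46) in 23 and 24 cells, with 62.9% and 63.9% of its UMIs in 5 cells. Cells with at least 3 UMIs of 7 mitosis genes were 17 of 172 (9.88%, 5.86 to 15.4) and 12 of 171 (7.02%, 3.68 to 11.9), intervals that overlapped. The result rested on few cells: without those cells Mki67 stood at 0.25, Top2a, a topoisomerase of dividing cells, at 0.13 and the list median at -0.31. With barcodes thinned before gating Top2a stood at -0.13. Without the C1q limit Mki67 stood at 0.95, Top2a at 0.38, Stmn1 at -0.06 and the list median at -0.14. Glycolysis genes, which supply activated T cells with energy, had a median of -0.26 over 13 genes, with none past 2-fold.

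Outside the lists, the rule for naming genes gave the 12 highest and 12 lowest ratios among genes of at least 100 CPM on average that CD8 T cells carried at or above the level of all other cells. The highest was Uhrf2, a ubiquitin ligase of methylated DNA, with 174 and 680 UMIs, 161 against 525 CPM (1.70, 1.46 to 1.95, and 1.16 without the C1q limit). Stat3, the signal transducer of interleukin-6, interleukin-10 and interleukin-21, had 599 and 1812 UMIs, 555 against 1398 CPM (1.33, 1.20 to 1.47), and stood at 0.91 without the C1q limit. Nfatc1 (1.31), which carries T cell receptor signals, and Tnfrsf9 (1.16), the costimulatory receptor 4-1BB, followed. Also among the 12 were Rsbn1 (1.45), Setbp1 (1.16), Map4 (1.12), Cmss1 (1.12), Tiprl (1.05), Itga6 (1.04) and Gzma. Without the C1q limit Nfatc1 stood at 0.91, Tnfrsf9 at 0.87, Setbp1 at 0.89, Map4 at 0.90, Cmss1 at 0.91 and Itga6 at 0.98, all under 2-fold. Rsbn1 overlaps an antisense gene, Phtf1os, and Stat3, Nfatc1, Tnfrsf9, Map4 and Cmss1 also overlap genes on the opposite strand.

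The lowest was Atp8a2, a lipid flippase, with 222 and 57 UMIs, 206 against 43.96 CPM (-2.21, -2.67 to -1.80), in 70 and 26 cells. Gzmb, Itga1, Il12rb2, Xcl1, Stmn1, Dusp2 and Serpinb6b stood in the same list, with Gm10076 (-1.21), Rrad (-1.0), the stress sensor Ern1 (-0.93) and Rnf157 (-0.93). With thinned sums Rnf157 stood at -0.22, and with both gate sums lowered to 1 UMI Rrad stood at -0.67, against -0.97 without the C1q limit.

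The 2-fold calls were then followed through 12 alternatives each. Of 31 genes past 2-fold that were followed, 8 stayed past it in all 12: Uhrf2, Rsbn1, Havcr2 and Zbtb16, which were higher in the knockout, and Gzmb, Itga1, Il12rb2 and Atp8a2, which were lower. For Zbtb16 the value without its 5 richest cells was set by the added count, and most of its knockout UMIs came from 5 cells. The other 23 of the 31 genes fell under 2-fold in at least 1 alternative. Gzma fell under it in 2, to 0.80 with both gate sums lowered to 1 UMI, Xcl1, P2rx7, Stat3, Setbp1 and Cmss1 only without the C1q limit, and Cd160 and Gm10076 only with thinned sums (-0.84 and -0.92). Serpinb6b and Itga6 fell under it in 6 alternatives each.

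Lef1 split the gated cells evenly in both libraries, 97 of 172 (56.4%, 48.6 to 63.9) and 96 of 171 (56.1%, 48.4 to 63.7). Lef1-detected cells were deeper, with medians of 6762 and 7899 UMIs against 4932 and 6236, and a cell without a Lef1 UMI can still express the gene. After thinning each cell to 1000 UMIs, Lef1 was found in 24.4% (18.2 to 31.5) and 30.4% (23.6 to 37.9), against 0.759% and 2.21% of B cells. Unthinned, B cells carried it in 3.14% and 8.83%.

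In Lef1-detected cells all naive and central memory genes tested had a ratio above 0 over Lef1-absent cells, 12 of 12 in the wild type and 14 of 14 in the knockout, beside 1511 of 3309 and 1799 of 3980 genes in all. Below 0 were 12 of 12 and 11 of 13 cytotoxic genes, 6 of 7 effector cytokine genes in both libraries, and 9 of 10 and 11 of 12 checkpoint genes. Of 3202 genes tested in both libraries, 46 (1.44%) were at least 2-fold higher and 57 (1.78%) at least 2-fold lower in Lef1-detected cells of both. Ccr7 was higher in Lef1-detected cells by 2.86 (log2) in wild-type and 3.07 in knockout cells, Satb1 by 2.49 and 2.77, and Tcf7 by 1.80 and 2.72. S1pr1, the receptor with which T cells leave tissue, differed by 2.48 and 3.80. Also among the 12 highest by the rule were Yes1 (2.77 and 2.26), Aff3 (1.79 and 1.88), Fam241a (1.78 and 2.49), Kif1b (1.66 and 1.72), Myc (2.44 and 1.55), Fgf13 (1.55 and 2.07), 1700025G04Rik (1.87 and 1.45) and Nin (1.77 and 1.40). With Lef1 read after thinning, Yes1 stood at -0.24 in the wild type and Myc at -0.069 and 1700025G04Rik at -0.028 in the knockout. With the sums thinned, Myc stood at -0.19 in the knockout.

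The Lef1-absent side was led by Ctla4 (-2.29 and -2.92), Gzma (-2.04 and -2.59), Tox (-1.88 and -2.54) and Hip1 (-1.77 and -3.44). Cables1, Ern1, Ier5l, Ccl4, Lmnb1, Tnfrsf9, Serpinb9 and Pdcd1 completed the 12 lowest, from -1.34 to -1.63 in wild-type and from -1.37 to -3.84 in knockout cells. Gzmb stood at -1.29 and -2.63, Ccl5 at -1.06 and -1.92, and Nkg7 at -0.66 and -1.51. The naive list had medians of 1.42 and 2.15, the cytotoxic list -0.69 and -1.40, and the checkpoint list -1.10 and -2.40. Each of these lists was further from 0 in the knockout. Cxcr6 (-0.73 and -2.50), Entpd1 (-0.89 and -2.52), Prdm1 (-0.39 and -2.60), a repressor of naive genes, and Il7r (0.17 and 2.42), the receptor for interleukin-7, likewise lay further from 0 in the knockout. With Lef1 read after thinning, Cxcr6, Entpd1 and Tigit each stood at 0.045 in the wild type, and with barcodes thinned before gating Prdm1 stood at 0.28 there.

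**Figure D3:**
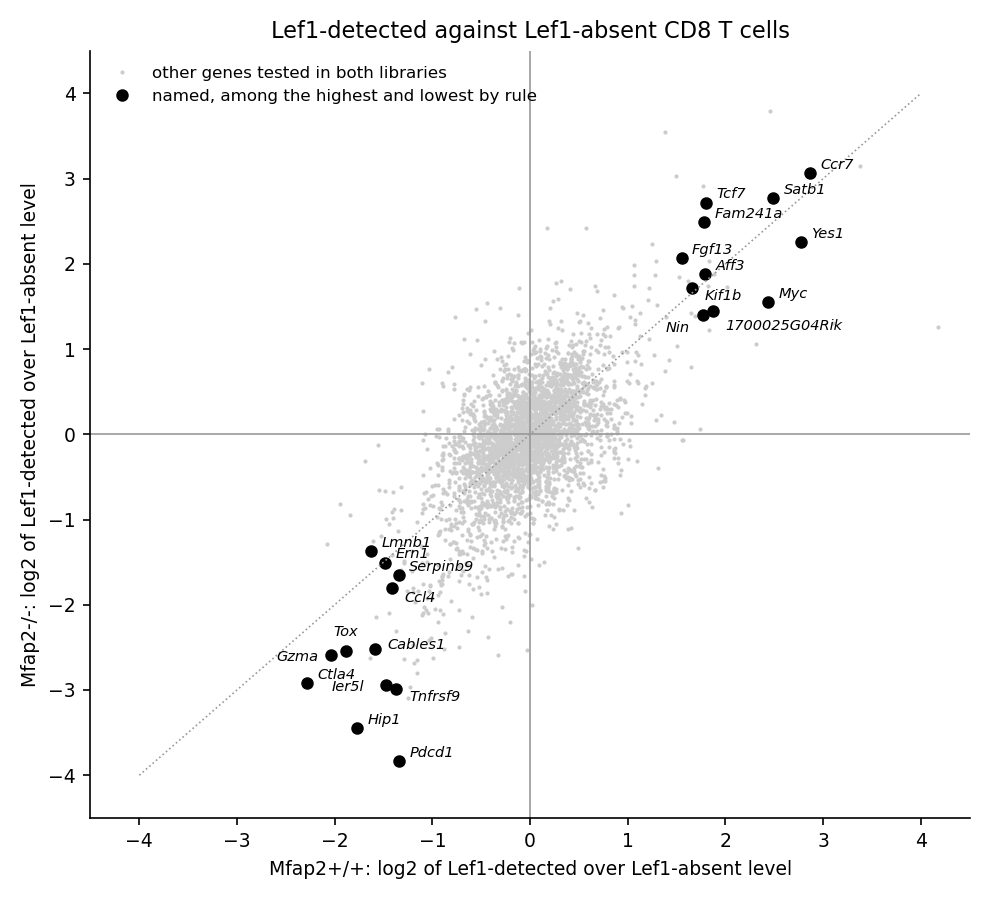
Each point is a gene with at least 50 UMIs in both libraries, placed by its log2 ratio of Lef1-detected over Lef1-absent CD8 T cells in the wild type (horizontal) and the knockout (vertical); black points are genes named among the 12 highest and 12 lowest by rule and the dotted line marks equal ratios. Ccr7 lies at the upper right (2.86 and 3.07), and Pdcd1 (-1.34 and -3.84) and Hip1 (-1.77 and -3.44) lie far below the line.

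The shares of cells with a UMI are set beside these ratios. Of Lef1-detected cells, 38.1% (28.5 to 48.6) of the wild-type and 65.6% (55.2 to 75.02) of the knockout ones also had a UMI of Ccr7. Gzmb was detected in 49.5% (39.2 to 59.8) of Lef1-detected cells in the wild-type library and 17.7% (10.7 to 26.8) of those in the knockout library, and Cxcr6 in 39.2% (29.4 to 49.6) and 17.7% (10.7 to 26.8). Their median depths were 6762 and 7899 UMIs, and the part of depth in these shares was not tested.

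Gzmb was detected in 107 of 172 wild-type and 57 of 171 knockout CD8 T cells. Of Pdcd1-positive cells, 82.6% (68.6 to 92.2) in the wild-type library and 55.4% (41.5 to 68.7) in the knockout library had Gzmb. Gzmk, a granzyme of memory-like and exhausted cells, was detected in 41.3% (27.0 to 56.8) and 58.9% (44.98 to 71.9) of the Pdcd1-positive cells. Gzmk itself stood at 62.1 and 78.7 CPM (0.33, -0.12 to 0.81). Shares of cells with 2 genes depend on depth and on which cells were gated.

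The contrast of the libraries was also read on each side of the split. Gzmb was lower in the knockout on both, at 590 and 86.7 CPM in Lef1-detected cells and 1444 and 544 in Lef1-absent cells. Gzma was higher on both, at 174 and 333 CPM and at 717 and 2011 CPM. Pdcd1 stood at 63.9 and 31.0 CPM in Lef1-detected cells (-1.02) and at 163 and 458 CPM in Lef1-absent cells (1.48). Entpd1 was near equal in Lef1-detected cells, at 63.9 and 71.9 CPM, and stood at 118 and 417 CPM in Lef1-absent cells. Havcr2 stood at 11.9 and 27.3 CPM and at 12.3 and 137 CPM. Its UMIs in Lef1-detected cells were under the minimum of 50 over both libraries, and its wild-type values rest on few UMIs on both sides.

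Counted separately, 2.83% of 4174 genes were 2-fold higher and 1.63% lower in Lef1-detected cells, and 5.75% of 3011 genes higher and 1.69% lower in Lef1-absent cells. The checkpoint list had no gene 2-fold higher, 2 lower and a median of -0.39 over 8 genes in Lef1-detected cells, and 5 higher, 1 lower and a median of 0.86 over 12 genes in Lef1-absent cells. Interferon medians were -0.17 and 0.77, heat shock medians 0.24 and 0.54, and cell cycle medians -0.35 and -1.68. Of Lef1-absent cells, 9 of 75 wild-type and 2 of 75 knockout cells had at least 3 UMIs of the mitosis genes. Il7r stood at 232 and 316 CPM in Lef1-detected and at 205 and 57.2 CPM in Lef1-absent cells. The difference between the sides of the split was not tested, since each side has 1 library per genotype.

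**Figure D4:**
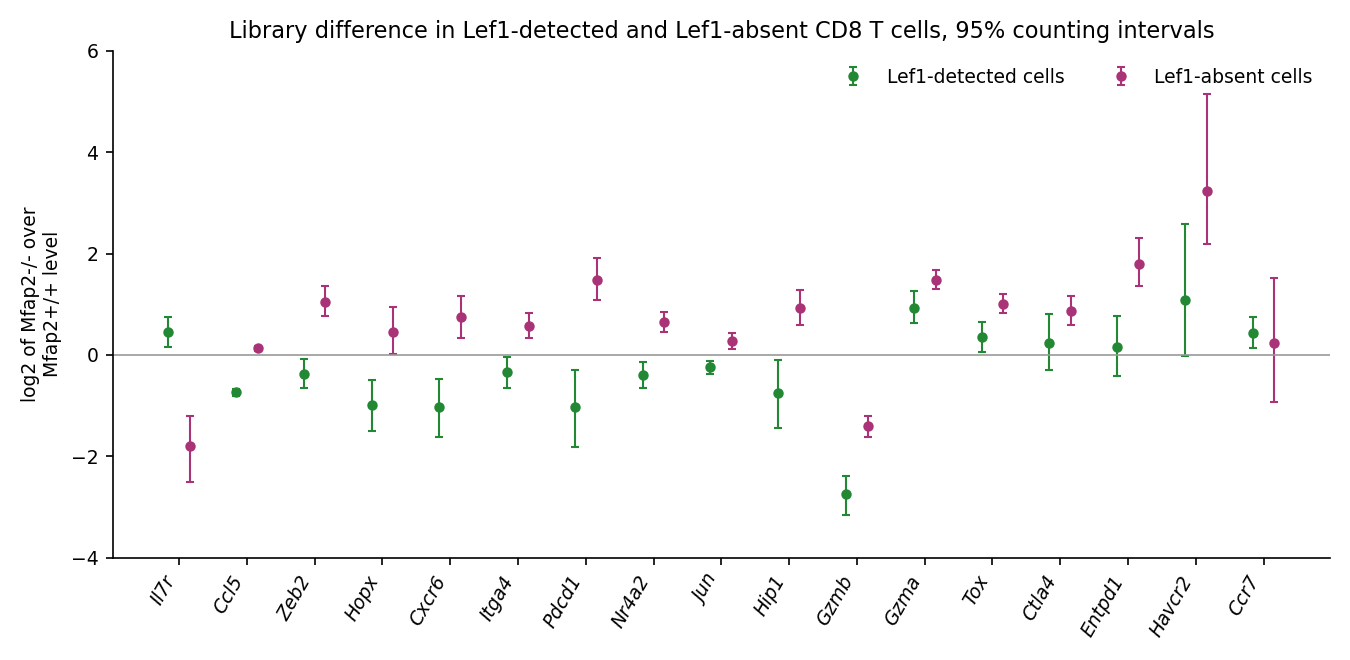
Log2 ratio of knockout over wild-type level within Lef1-detected (green) and Lef1-absent (magenta) CD8 T cells, with 95% counting intervals; the first 10 genes have ratios of opposite sign with intervals on opposite sides of 0. Pdcd1 lies at -1.02 and 1.48 and Il7r at 0.44 and -1.80, whereas Gzmb is below 0 and Gzma above 0 on both sides.

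The same contrast was read in other lymphocytes of the libraries. Gzmb was lower in the knockout in CD4 T cells (-2.29), NK cells with ILC1 (-1.13) and B cells (-1.11), the last at the level of background RNA. Xcl1 was likewise lower in all 3 (-2.96, -0.62 and -1.51), and Dusp2 (-1.22, -1.31 and -0.47). Gzma was higher in CD4 T cells (1.33), near equal in NK cells with ILC1 (-0.09) and lower in B cells (-1.04). Itga1 stood at -0.87, -0.06 and -0.16 and Il12rb2 at -0.41, 0.29 and -0.22, against -1.62 and -1.52 in CD8 T cells. Uhrf2 stood at -0.29, 0.57 and 0.09 and Stat3 at 0.81, 0.28 and 0.07. Tox was higher in CD4 T cells (0.72) and near equal in NK cells with ILC1 (0.10). Pdcd1 was higher in CD4 T cells (0.93) and lower in NK cells with ILC1 (-1.01). Hspa1a stood at 0.79, 1.02 and 1.36. B cells serve as the background for free RNA of T cell genes. All 10 cytotoxic genes tested there lay below 0 (median -0.73), beside 4039 of 9798 genes in all. The Xcl1 ratio of B cells (-1.51) lay beside -1.40 in CD8 T cells. The part of free RNA in the CD8 T ratios was not tested. These are values of the same 2 libraries side by side, and differences between classes were not tested.

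**Figure D5:**
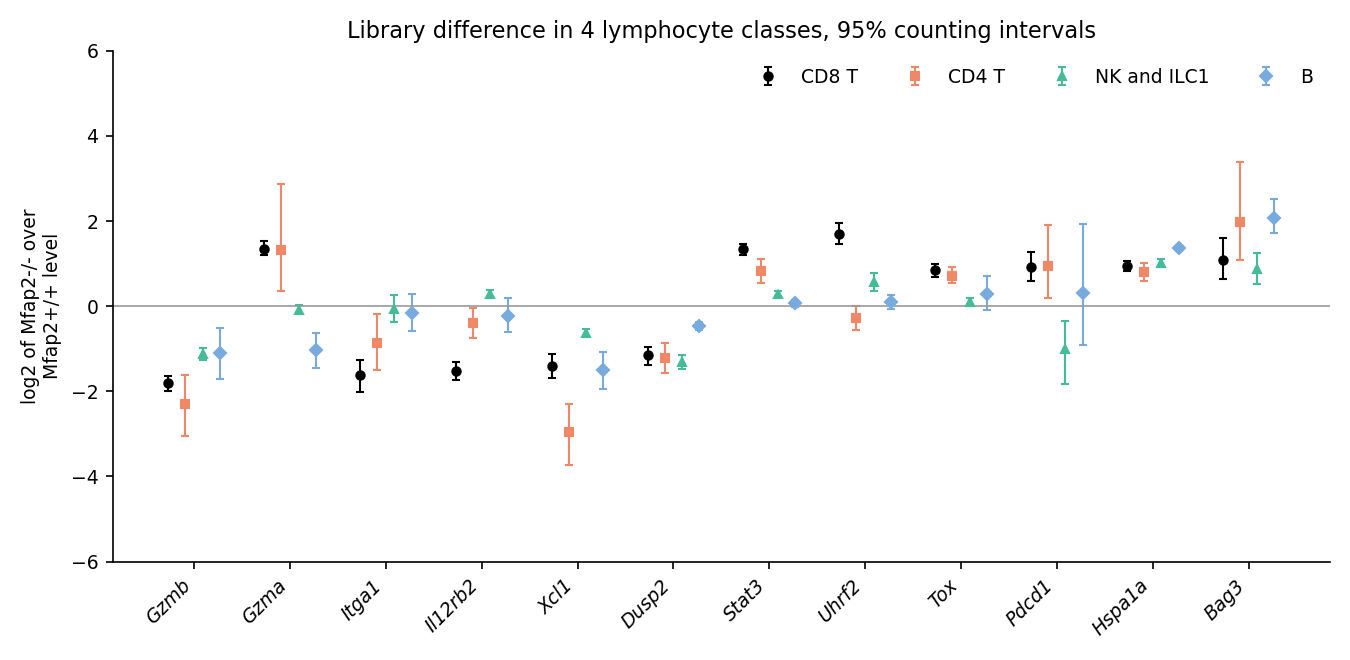
Log2 ratio of knockout over wild-type level of 12 genes in CD8 T cells, CD4 T cells, NK cells with ILC1 and B cells of the same libraries, with 95% counting intervals. Itga1, Il12rb2 and Uhrf2 lie furthest from 0 in CD8 T cells (-1.62, -1.52 and 1.70), while Hspa1a and Bag3 are above 0 in all 4 classes.

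Over the 10 sums of 5 gated classes in 2 libraries, the genes whose CPM followed Cd8a and Cd8b1 most closely were Fam241a (Pearson r 0.995), Igf2r (0.919), Fgf13 (0.897), Lef1 (0.895), Hdgfl3 (0.889), Neto2 (0.881), Sidt1 (0.876), Ly6c2 (0.867), Ep400 (0.859) and Edem1 (0.856). The sums share libraries, and 2 of the 10 hold nearly all Cd8 UMIs, so these values describe which genes were high in the CD8 T sums. Fam241a and Fgf13 also stood among the 12 genes highest in Lef1-detected cells.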

How the data were processed

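The authors deposited raw UMI counts for each gene and barcode, and the file headers name Cell Ranger 7.0.1. Per the submitters' processing notes Cell Ranger 3.1.0, Seurat and build mm10 were used. Per the labels' protocols, libraries were Chromium 3′ v3. How intronic reads were counted, and whether cells had been filtered before deposit, is not given in the sources used here. Of 32285 gene IDs 32158 occur in GENCODE M21, used for positions and overlaps on GRCm38, and promoters came from RefSeq on GRCm38.p6.

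The filters removed 413 wild-type and 149 knockout barcodes. No doublet caller was run, and the B cell, C1q, Cd4 and Trdc limits stand in its place. UMIs were summed per library and class, 1079223 in wild-type and 1296517 in knockout CD8 T cells, and scaled to CPM. Matching gates gave CD4 T cells (46 and 109), NK cells with ILC1 (no Cd3 UMI, at least 2 of Ncr1 and Klrb1c; 424 and 214), B cells (at least 3 B cell UMIs; 924 and 1359) and macrophages (at least 10 C1q UMIs; 2141 and 2313). Log2 ratios had 1 count added, for genes with at least 50 UMIs. Intervals are exact Poisson for CPM, Clopper-Pearson for shares and exact conditional for ratios, at 95%. Named genes were the 12 highest and 12 lowest with a mean of at least 100 CPM, at or above the level of all other cells. The split used the smaller ratio of the libraries, and gate, mitochondrial, ribosomal protein, haemoglobin and receptor variable genes were left out. Members and lists were chosen with earlier results of these data known. The interval step was tested on simulated counts. Python 3.11.15, numpy 2.4.6, scipy 1.17.1 and pandas 2.3.3 were used. Some genes are not reported here, but they count in list totals and medians.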

Additional observations from a re-analysis of the deposited data

Results flagged for a closer look

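Of 272 genes checked, 10 had log2 ratios of knockout over wild type with opposite signs in Lef1-detected and Lef1-absent CD8 T cells, with both counting intervals clear of 0. The genes checked were members of the role lists and genes named above, some of them for their library or Lef1 split ratios in these same data. The share over all genes was not counted, so the 10 cannot be set against a background. The difference between the sides was not tested, because each side has 1 library per genotype.

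Higher in the knockout in Lef1-absent cells and lower in Lef1-detected cells were Pdcd1 (-1.02 in Lef1-detected, 1.48 in Lef1-absent cells), the receptor Cxcr6 (-1.03 and 0.74), the integrin Itga4 (-0.34 and 0.57), and Hip1 (-0.75 and 0.92). The factors Zeb2 (-0.37 and 1.05), Hopx (-0.98 and 0.46), Nr4a2 (-0.40 and 0.65) and Jun (-0.24 and 0.27) and the chemokine Ccl5 (-0.74 and 0.13) had the same pattern. The opposite pattern was seen for Il7r (0.44 and -1.80).

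Lef1-detected cells had median depths of 6762 UMIs in wild-type and 7899 in knockout cells, and Lef1-absent cells 4932 and 6236; the part of depth in these values was not tested.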

How the results depend on the processing

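No paired analysis was possible because each genotype has 1 library, and for the same reason no replicate was left out. Leaving out cells with 3 or more UMIs of another type left 8 wild-type and 19 knockout cells, too few for a value. It was replaced by leaving out the 25% richest in such UMIs; this setting, the missing C1q limit and the missing mitosis cells were chosen after seeing the data. Of 1580 values for single genes under the alternatives, 16 changed sign, 15 of them where the counting interval of the value as reported excluded 0. Of 631 list medians 38 changed sign. For 5 of them the median lower and median upper bounds of the member genes, as reported, lay on the same side of 0. Such bounds are not an interval of the list median. Among the others were interferon (-0.0805, thinned gate), effector transcription factors and chemokine receptors (-0.19 and -0.20, thinned sums) and cytotoxic genes (0.061, richest 25% left out).

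CD8 T shares were 0.752% and 0.517% (wild type and knockout) with barcodes thinned to 2000 UMIs before gating (68 of 9043 and 57 of 11034 cells), 2.10% and 1.89% with sums of at least 1, 1.06% and 1.04% with sums of at least 3, and 2.07% and 2.22% without the C1q limit. Lef1-detected shares were 48.5% and 45.6% with the thinned gate, 24.4% and 30.4% with cells thinned to 1000 UMIs, 46.7% in the wild type with sums of at least 3, and 64.5% in the knockout without the C1q limit. Genes 2-fold higher numbered 110 with the thinned gate, and those 2-fold higher and lower 37 and 13 with thinned sums and 1629 and 1960 with no filter beyond 1 UMI. Cell cycle medians were -0.48 (thinned gate), -0.46 (thinned sums), -0.14 (no C1q limit) and -0.31 (mitosis cells left out), and the cytotoxic median was -0.38 (thinned sums). With the thinned gate Ccl5 stood at 0.15 and Il21r at -0.083. Tcf7 stood at -0.23 with thinned sums and Ccl3 at -0.10 without its 5 richest cells. Mki67 and Top2a stood at 0.95 and 0.38 without the C1q limit and at 0.25 and 0.13 without the mitosis cells.

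In the Lef1 split, genes 2-fold higher and lower numbered 17 and 24 (thinned gate), 3 and 10 (Lef1 read in thinned cells), 4 and 9 (thinned sums) and 185 and 622 (no filter), and 27 were higher with sums of at least 3. Knockout chemokine receptor medians were -0.83 (sums of at least 3), -0.86 (at least 1), -0.67 (thinned gate) and -0.20 (no C1q limit). Other knockout medians were -1.65 for checkpoint genes (thinned gate), 1.16 for naive and -2.27 for cytotoxic genes (Lef1 in thinned cells), 1.51 for naive genes (no C1q limit) and -0.19 for cell cycle genes (mitosis cells left out). Wild-type medians were -0.54 for checkpoint genes (Lef1 in thinned cells) and 0.77 for naive genes (thinned sums). With Lef1 read in thinned cells, Yes1 stood at -0.24 and Cxcr6, Entpd1 and Tigit at 0.045 in the wild type, and Myc at -0.069 and 1700025G04Rik at -0.028 in the knockout; Myc stood at -0.19 with thinned sums. Thinning leaves fewer genes past the UMI minimum; the cause of the other shifts was not tested.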

Other observations

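The 63 wild-type and 111 knockout cells that met every condition except the C1q limit repeated some library differences. In them the log2 ratio of knockout over wild type was -1.84 for Gzmb, -2.93 for Atp8a2, -0.87 for Itga1, -1.04 for Il12rb2, 2.83 for Havcr2 and 1.15 for Hsph1. It was 0.48 for Gzma, 0.08 for Tox and -0.12 for Pdcd1, against 1.35, 0.84 and 0.92 within the limit. Mki67 stood at 1.32 and Top2a at 0.70, where the cells within the limit had -0.93 and -0.99.

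T cell receptor variable genes were hardly read by this chemistry, with 14 Trbv UMIs in wild-type and 31 in knockout cells, too few to describe clones. Of UMIs of the beta constant genes, Trbc1 made up 32.1% (29.6 to 34.7; 434 of 1351) in the wild type and 37.6% (35.0 to 40.3; 488 of 1298) in the knockout. These intervals treat UMIs of the same cell as independent, so they are too narrow to compare the libraries. Counted by cell, 36 of the 168 wild-type cells counted (21.43%, 15.48 to 28.41) had more Trbc1 than Trbc2 UMIs. In the knockout 40 of the 164 cells counted did (24.39%, 18.03 to 31.7), and the intervals by cell overlapped.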
